A study of Sus scrofa with 60 samples.

Results

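Liver RNA was compared between newborn pigs with an obstructed bile duct and sham-operated pigs that all received parenteral nutrition (PN) with a mixed lipid emulsion (MLE). The 8 MLE-BDL pigs and the 9 MLE-sham pigs, chosen by the diet and surgery in their labels alone, make up 17 of the 60 pigs in the series. All were offspring of Landrace and Hampshire sows, males and females together, taken by cesarean section 1 day before term. In bile duct ligation (BDL), the cystic and the common bile duct were tied on day 1. In sham surgery, the abdomen was opened and the liver handled. For 14 days, both groups received SMOFlipid, which contains soy, olive and fish oil and medium-chain triglycerides, as the lipid of their PN. None of them received food by the gut, so the surgery acted on a liver without enteral feeding in both arms. The same surgeries were done in pigs on PN with a soy lipid emulsion (SLE, Intralipid) and in pigs fed a milk replacer formula enterally (ENT), and those groups enter the estimate of spread and the comparison of responses between diets.

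Bile leaves the liver through ducts lined by cholangiocytes. When the outflow is blocked, bile acids build up in the liver, small ducts multiply at the edge of the portal tract (the ductular reaction), and matrix is laid down around them. Hepatocytes, which secrete most serum proteins and take up, make and detoxify bile acids, are known to change their gene expression under this load. The comparison of MLE-BDL with MLE-sham asks which of these programs differ at the RNA level when fish oil and olive oil replace part of the soy oil in both arms.

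Each MLE library held 15555556 to 18370633 reads counted to genes (median 17183850), and 18617 to 19621 genes had counts. Values are given as CPM, the counts of a gene relative to the size of its library after scaling by the trimmed mean of M values (TMM), so they stand relative to the other RNA of a liver. The 10 most abundant genes took 16.87% to 18.22% of the counts in MLE-BDL and 19.34% to 24.18% in MLE-sham, and the TMM factors did not overlap, at 1.056 to 1.121 in MLE-BDL and 0.8852 to 0.9998 in MLE-sham. The tissue label held: ALB, which encodes albumin, was at 23453 CPM or more in every MLE liver. Of 2 Y-linked genes found, 1 had no count in the MLE livers, so their summed level is that of 1 gene. It was 22.23 to 24.6 CPM in 4 of the 8 MLE-BDL livers and 22.62 to 23.36 CPM in 2 of the 9 MLE-sham livers, and under 1 CPM in the others, so the arms may differ in sex. Its part in the results was not tested. Titles carry a 3-digit identifier number whose meaning is not stated. Each of the 4 numbers of the MLE pigs holds both surgeries, so the BDL difference was also read within each number. Deviations from the group means correlated at 0.0636 to 0.2589 (median 0.1242) over 11 pairs of a sham and a BDL pig that share this number but not the replicate number, and at a median of -0.0507 over 53 pairs with other numbers. The test has no term for it, and values with it as a block are given where a named gene changes its call. MLE-sham replicate 2 and MLE-BDL replicate 2, which share an identifier number, stood apart at the top of the second principal component (44.75 and 39.47 units), and calls of named genes that are lost without them are given.

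On the first principal component, which held 24.61% of the variance, the 17 pigs separated by surgery. MLE-BDL livers scored 30.98 ± 10.53 (SD, n = 8) and MLE-sham livers -27.54 ± 8.83 (SD, n = 9). The ranges, 16.86 to 43.92 and -37.59 to -10.18, did not overlap. The difference of 58.52 gave p = 4.114e-05 in a two-sided exact permutation test over 24310 divisions, the smallest p that they can give. With the mean of each identifier number subtracted, the difference was 57.78.

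**Figure D1:**
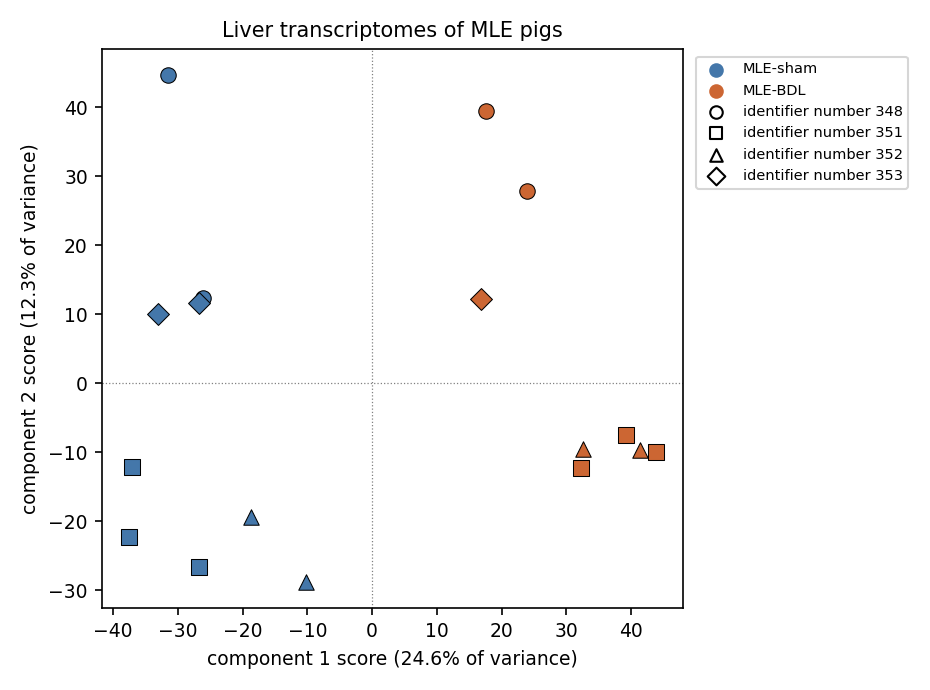
Scores of the 17 MLE livers on the first (x axis) and second (y axis) principal component of log2 CPM, with the share of variance on each axis, 1 point for each pig, colour for surgery and symbol for identifier number. MLE-BDL pigs lie at 16.86 or more on the first component and MLE-sham pigs at -10.18 or less, while the 2 highest points on the second component are MLE-sham replicate 2 and MLE-BDL replicate 2.

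A gene was called when its Benjamini-Hochberg adjusted p in edgeR's quasi-likelihood test was under 0.05 and it differed by more than 2-fold. Of 16210 genes tested, 612 (3.78%) were called. Of these, 414 (2.55%) were higher after ligation and 198 (1.22%) lower. On library totals without scaling, the split was 737 higher and 137 lower. At adjusted p under 0.05 and any fold, 2339 genes (14.4%) passed, 1273 (7.85%) higher and 1066 (6.58%) lower. The calls comprised 529 protein-coding genes and 76 long noncoding RNAs. The difference had the same sign within all 4 identifier numbers for 560 of the 612, against 33.4% of all tested genes. In 477 genes (2.94%), no MLE-BDL liver overlapped an MLE-sham liver, with 275 (1.7%) above and 202 (1.25%) below. Without the pair that stood apart, 654 genes were called, 555 of them among the 612. By over 4-fold, 111 genes rose and 32 fell. Rises, falls and differences of single genes are given below on the log2 scale, and ± marks the SE of the fit. Genes are described below by function, in lists of 1000 tested genes of which 111 were called.

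Genes of bile duct cells and of the ductular reaction had the highest share of calls of the 43 lists, 56.2%. Of 32 measured, 17 were called higher and 1 lower, with a median log2 fold change of 1.04 against 0.004 over all tested genes. In 13 of the 32 all MLE-BDL livers were above all MLE-sham livers. SOX9, a transcription factor of biliary identity (chromosome 12, 8642154 to 8647315 in Sscrofa11.1), was at 2.24 to 8.12 CPM (median 6.64) in MLE-sham and 13.3 to 23.9 CPM (median 19.3) in MLE-BDL. The 2 groups did not overlap, and the rise was past the test (log2 fold change 1.65, SE 0.33, adjusted p = 0.000272). KRT7, a keratin of duct epithelium that the deposited annotation classes as a long noncoding RNA, was at 2.4 to 5.98 CPM (median 3.27) in MLE-sham and 10.9 to 17.4 CPM (median 12.9) in MLE-BDL, again without overlap (log2 fold change 1.83, SE 0.39, adjusted p = 0.000728). KRT19, the other classical duct keratin, was at 9.08 to 26.7 CPM (median 15.3) in MLE-sham and 19.4 to 80.6 CPM (median 43.9) in MLE-BDL. Its groups overlapped, since at least 1 sham liver reached into the BDL range (log2 fold change 1.46, SE 0.28, adjusted p = 0.000213).

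Junction and adhesion genes of this list gave its largest rises. CLDN6, a claudin of fetal epithelium, was at 0.257 to 1.04 CPM (median 0.624) in MLE-sham and 6.39 to 18.1 CPM (median 9.85) in MLE-BDL. It was close to or below 1 CPM in every sham liver and several CPM in every BDL liver (log2 fold change 4.10, SE 0.56, adjusted p = 9.91e-07). CDH6, a cadherin of developing epithelium, was at 0.834 to 1.75 CPM (median 1.3) in MLE-sham and 5.1 to 10.7 CPM (median 7.35) in MLE-BDL, without overlap (log2 fold change 2.56, SE 0.54, adjusted p = 0.000599). MMP7, a matrix-cleaving enzyme known from injured bile duct epithelium, was at 3.65 to 15.4 CPM (median 12.1) in MLE-sham and 29.1 to 59.9 CPM (median 49.1) in MLE-BDL. Every BDL liver was above every sham liver (log2 fold change 2.15, SE 0.60, adjusted p = 0.0101). PROM1, a membrane glycoprotein used as a progenitor marker, was the member called lower, at 4 to 13.9 CPM (median 7.36) in MLE-sham and 1.18 to 4.22 CPM (median 2.48) in MLE-BDL (log2 fold change -1.61, SE 0.41, adjusted p = 0.00464).

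The rise of the duct list went with lower hepatocyte RNA. The summed level of the duct genes was 1215 to 1621 CPM in MLE-sham and 1664 to 2498 CPM in MLE-BDL, while that of 23 hepatocyte markers was 167400 to 241100 CPM and 115800 to 130400 CPM. Neither pair of ranges overlapped. In bulk liver, more or fewer cells of a type and more or less RNA per cell cannot be told apart. The part of this shift in the rises and falls of other lists was not tested.

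Of 45 extracellular matrix genes measured, 13 were called higher and 1 lower. At any fold 26 rose, 3 fell and 16 did not pass, and the median log2 fold change was 0.69. Their summed level overlapped, at 15770 to 20370 CPM (median 17240) in MLE-sham and 14740 to 21710 CPM (median 18030) in MLE-BDL. The fibrillar collagen gene COL1A1 was at 196 to 889 CPM (median 362) in MLE-sham and 526 to 1831 CPM (median 1124) in MLE-BDL. Highest among the shams was MLE-sham replicate 9, which lay inside the BDL range, and the rise was 1.56 on the log2 scale (SE 0.38, adjusted p = 0.00265). COL3A1, a fibrillar collagen of the same bundles, was at 696 to 1462 CPM (median 1022) in MLE-sham and 1173 to 2857 CPM (median 2102) in MLE-BDL (log2 fold change 1.00, SE 0.23, adjusted p = 0.00137). It was at the 2-fold limit and fell under it with DESeq2, without the pair that stood apart, and without any one of MLE-BDL replicates 3, 4, 5 or 7 or MLE-sham replicates 1, 2, 3, 5, 7 or 8 (log2 fold change down to 0.91). COL1A2, the partner chain of COL1A1, rose by 0.96 (SE 0.27, adjusted p = 0.0104), below the 2-fold limit, and reached it with the identifier number as a block (1.00).

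Several minor matrix components did not overlap between the groups. COL16A1, a fibril-associated collagen, was at 10.8 to 21.5 CPM (median 14.2) in MLE-sham and 32 to 53.9 CPM (median 38.5) in MLE-BDL (log2 fold change 1.46, SE 0.33, adjusted p = 0.00109). VCAN, the proteoglycan versican, was at 5.15 to 7.02 CPM (median 5.75) in MLE-sham and 8.33 to 50.9 CPM (median 16.1) in MLE-BDL (log2 fold change 1.91, SE 0.35, adjusted p = 7.62e-05). COL7A1, the anchoring-fibril collagen, was at 1.56 to 3.83 CPM (median 2.71) in MLE-sham and 4.22 to 27.8 CPM (median 10.7) in MLE-BDL (log2 fold change 2.25, SE 0.37, adjusted p = 1.99e-05). The lowest BDL liver for COL7A1 was just above the highest sham liver. LTBP2, a latent TGF-beta binding protein, was the matrix gene called lower, with a log2 fold change of -1.28 ± 0.30 (adjusted p = 0.00166), and is named after its value was seen. Without MLE-BDL replicate 4, 2 matrix genes were called lower.

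TIMP1, an inhibitor of matrix metalloproteinases (chromosome X, 42103251 to 42106289), was at 4.31 to 8.68 CPM (median 5.21) in MLE-sham and 18.9 to 135 CPM (median 47.2) in MLE-BDL. Every BDL liver was above the highest sham liver, with a log2 fold change of 3.41 (SE 0.55, adjusted p = 1.7e-05). PLAT, tissue plasminogen activator, was at 4.69 to 7.63 CPM (median 5.8) in MLE-sham and 17.8 to 98.3 CPM (median 31.9) in MLE-BDL, without overlap (log2 fold change 2.97, SE 0.40, adjusted p = 8.24e-07). Of 23 TGF-beta ligands, receptors and targets, 1 was called (4.35%, against 3.78% of all genes). At any fold, 7 rose and 2 fell (39.1%, against 14.4%). TGFB1 itself was at 19.7 to 48.2 CPM (median 32.7) in MLE-sham and 35.9 to 59.6 CPM (median 45.4) in MLE-BDL (log2 fold change 0.52, SE 0.14, adjusted p = 0.00812). Its groups overlapped, its sign differed in 1 of the 4 identifier numbers, and its rise was under 2-fold. Leaving out any one of MLE-BDL replicate 1 or MLE-sham replicates 4, 7 or 9 brought up to 3 called genes in that list.

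Markers of stellate cells and myofibroblasts, the cells that make most scar collagen, gave no call in 22 genes. At any fold, 2 rose and 2 fell (18.2%, against 14.4% of all genes), and the median was 0.11. ACTA2, smooth muscle actin, was at 30 to 70.3 CPM (median 43.7) in MLE-sham and 49.1 to 105 CPM (median 57.7) in MLE-BDL. PDGFRB, the receptor of platelet-derived growth factor, differed by 0.26 ± 0.17 (adjusted p = 0.336), and RELN, a stellate cell glycoprotein, by 0.44 ± 0.18 (adjusted p = 0.0906). ACTA2 differed by 0.50 ± 0.21 (adjusted p = 0.0937), and none of the 3 passed the test, although RELN did with the identifier number as a block (adjusted p = 0.0435) and, on the MLE pigs alone, ACTA2 (adjusted p = 0.0449) and RELN (adjusted p = 0.0297) did. Their groups overlapped. The summed marker level was 888.2 to 1096 CPM in MLE-sham and 978.3 to 1349 CPM in MLE-BDL. One gene of this list was called when any one of MLE-BDL replicates 1, 2, 6 or 8 or MLE-sham replicates 5 or 9 was left out.

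**Figure D2:**
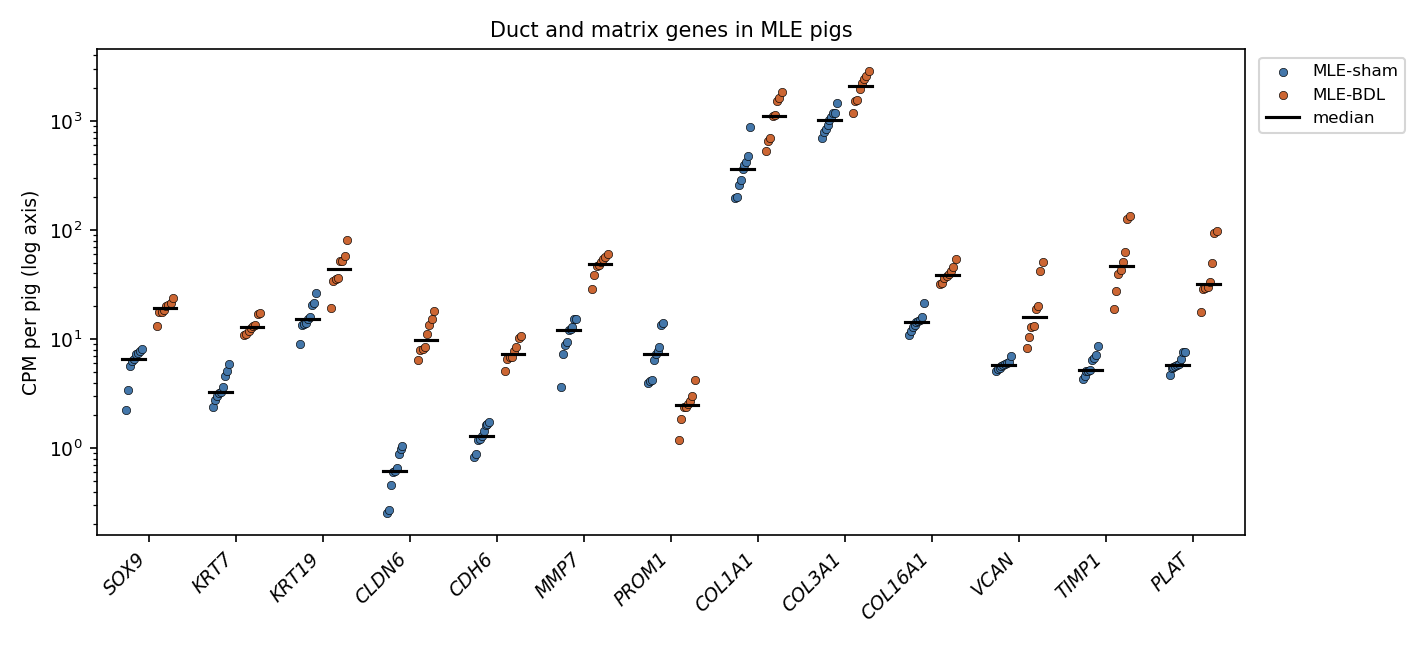
CPM of duct, matrix and matrix-turnover genes in each MLE liver (y axis, log scale), with genes along the x axis, 1 point for each pig, colour for surgery and a bar at the group median. SOX9, CLDN6, TIMP1 and PLAT show no overlap between the 8 MLE-BDL and 9 MLE-sham livers, KRT19 and COL1A1 do overlap, and PROM1 is lower in MLE-BDL.

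Among actin cytoskeleton and focal adhesion genes, which serve cell shape and attachment, no fall passed the test. Of 40 measured, 8 were called higher. At any fold 23 rose and 17 did not pass, and 10 did not overlap, with a median of 0.32. S100A6, a calcium-binding protein of epithelial and mesenchymal cells, was at 1.11 to 11.6 CPM (median 4) in MLE-sham and 34.2 to 91.4 CPM (median 54.9) in MLE-BDL. The groups were far apart, although MLE-sham replicate 5 was high among shams (log2 fold change 3.67, SE 0.51, adjusted p = 1.27e-06). ANXA2, a membrane-binding annexin (chromosome 1, 111588721 to 111635064), was at 42.8 to 65.9 CPM (median 57.5) in MLE-sham and 104 to 161 CPM (median 117) in MLE-BDL. Its change of 1.18 (SE 0.13) was modest, but the livers within each group were close together and its adjusted p was 3.15e-09, the smallest value among the genes named here, which CORIN and BACH2 shared. TUBB2B, a beta-tubulin, was at 0.718 to 3.06 CPM (median 1.81) in MLE-sham and 4.52 to 7.76 CPM (median 6.97) in MLE-BDL (log2 fold change 1.78, SE 0.23, adjusted p = 2e-07). XIRP1, an actin-binding protein of muscle, and ANKRD1, a nuclear protein induced by stretch, rose by 4.79 (SE 0.89, adjusted p = 0.000116) and 3.21 (SE 0.67, adjusted p = 0.000483).

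Other muscle genes did not rise with XIRP1. Of 10 striated muscle markers tested, none was called higher, and NEB, which encodes nebulin, was called lower (log2 fold change -2.04, SE 0.42, adjusted p = 0.000345). ACTA1, skeletal actin, had at most 2 counts in any MLE library and TNNT3, a troponin, at most 4, too few to be tested. ACTG1, a cytoplasmic actin that every cell makes, was at 626 to 1123 CPM (median 769) in MLE-sham and 969.6 to 1603 CPM (median 1457) in MLE-BDL. It rose by 0.79 (SE 0.15, adjusted p = 0.000108), and FLNA, the actin crosslinker filamin A, by 0.73 (SE 0.16, adjusted p = 0.000599), both below the 2-fold limit.

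Of 18 tight junction genes, CLDN6 alone was called (5.56%, against 3.78% of all genes), and the median was 0.01. CLDN1, the claudin that seals hepatocyte and bile duct junctions, was at 89 to 130.3 CPM (median 116) in MLE-sham and 52.2 to 76.4 CPM (median 62.8) in MLE-BDL. It was lower in every BDL liver, with a fall under 2-fold (log2 fold change -0.78, SE 0.11, adjusted p = 2.97e-06).

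Among chemokines, 5 of 19 were called higher and 1 lower. CXCL8, the neutrophil attractant interleukin 8, was at 0.299 to 2.12 CPM (median 0.847) in MLE-sham and 8.49 to 20.5 CPM (median 12.6) in MLE-BDL. All BDL livers were above all shams (log2 fold change 3.73, SE 0.69, adjusted p = 0.000101). CXCL2, which acts on the same receptor, was at 0.0598 to 0.464 CPM (median 0.223) in MLE-sham and 0.327 to 1.53 CPM (median 1.23) in MLE-BDL (log2 fold change 2.06, SE 0.55, adjusted p = 0.00647). CCL20, an attractant of CCR6-bearing lymphocytes, rose by 2.79 (SE 0.66, adjusted p = 0.00197), CXCL14 by 2.09 (SE 0.37, adjusted p = 6.75e-05) and CCL2, the monocyte attractant, by 1.13 (SE 0.30, adjusted p = 0.0067). All 3 overlapped between groups, and CCL2 was under 2-fold without MLE-BDL replicate 3 (0.97). CCL19, a lymphoid chemokine named after its value was seen, was called lower (log2 fold change -1.01, SE 0.33, adjusted p = 0.029), but did not pass without MLE-BDL replicate 2, MLE-BDL replicate 5 or MLE-sham replicate 2 (adjusted p up to 0.138), nor without the pair that stood apart (adjusted p = 0.2145). The count of chemokines called lower was 0 with the identifier or the replicate number as a block and 0 to 2 when 1 pig was left out, moving with MLE-BDL replicate 6 and MLE-sham replicates 5 and 9 too.

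Cytokine and NF-kappaB genes gave 4 calls of 39, all higher. LIF, a cytokine of the interleukin 6 family, was at 0.201 to 0.687 CPM (median 0.522) in MLE-sham and 1.78 to 4.23 CPM (median 2.17) in MLE-BDL, without overlap (log2 fold change 2.42, SE 0.50, adjusted p = 0.00041). TNFRSF12A, the receptor of TWEAK, which is known to drive biliary proliferation, was at 3.55 to 12.2 CPM (median 6.44) in MLE-sham and 26.9 to 52.5 CPM (median 35.1) in MLE-BDL. Every BDL liver was far above the highest sham liver (log2 fold change 2.40, SE 0.41, adjusted p = 4.25e-05). PTGS2, the inducible cyclooxygenase, and IKBKE, a kinase of innate signalling, rose by 1.58 (SE 0.40, adjusted p = 0.00392) and 1.02 (SE 0.22, adjusted p = 0.000611), PTGS2 with the other sign in 1 identifier number. IKBKE was under 2-fold without any one of MLE-BDL replicates 1 or 8 or MLE-sham replicates 1, 3, 4, 5, 6 or 9 (log2 fold change down to 0.96). The feedback inhibitors NFKBIA and TNFAIP3, which NF-kappaB induces, differed by 0.30 ± 0.17 (adjusted p = 0.244) and 0.16 ± 0.19 (adjusted p = 0.649) and did not pass.

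Immune cell markers moved in different directions within 1 lineage. Of 24 Kupffer cell and macrophage markers, 6 were called higher, and at any fold 8 rose and 6 fell, with a median of -0.21. Only 9 of the 24 were above 0. Named below are the first 3 of the list and its 4 largest calls, so none of the 6 that fell is named. LGALS3, galectin 3 (chromosome 1, 184478639 to 184496155), was at 1.02 to 3.53 CPM (median 1.56) in MLE-sham and 9.42 to 30.3 CPM (median 16.8) in MLE-BDL. The groups did not overlap, with MLE-sham replicate 2 the highest sham (log2 fold change 3.46, SE 0.52, adjusted p = 4.31e-06). TREM2, a lipid-sensing receptor of macrophages, was at 0 to 0.299 CPM (median 0.0624) in MLE-sham and 0.206 to 4.04 CPM (median 1.76) in MLE-BDL, so that most sham livers were near the level of a single read (log2 fold change 4.10, SE 0.65, adjusted p = 1e-05). GPNMB, a glycoprotein of lipid-laden macrophages, was at 40.7 to 112 CPM (median 70.5) in MLE-sham and 139 to 234 CPM (median 186) in MLE-BDL (log2 fold change 1.40, SE 0.28, adjusted p = 0.000237). LYZ, lysozyme, rose by 2.71 (SE 0.58, adjusted p = 0.000635) and MARCO, a scavenger receptor of Kupffer cells, by 1.13 (SE 0.28, adjusted p = 0.00278), with the other sign in 1 identifier number for MARCO, which was under 2-fold without MLE-BDL replicate 7 (0.92). The lineage markers CD68 and CD163 differed by -0.06 ± 0.12 (adjusted p = 0.8) and -0.31 ± 0.23 (adjusted p = 0.398) and did not pass. The summed marker level was 2601 to 4172 CPM in MLE-sham and 2580 to 3294 CPM in MLE-BDL.

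Of 12 neutrophil markers, 2 (16.7%, against 3.78% of all genes) were called higher: MMP9, gelatinase B, at 0.134 to 1.3 CPM (median 0.813) in MLE-sham and 1.67 to 7.97 CPM (median 4.51) in MLE-BDL (log2 fold change 2.60, SE 0.60, adjusted p = 0.00166), and CSF3R, the receptor of G-CSF (log2 fold change 1.78, SE 0.34, adjusted p = 0.000173). Without the pair that stood apart, 5 were called. S100A8 and S100A9 differed by 0.58 ± 0.54 (adjusted p = 0.533) and 0.91 ± 0.53 (adjusted p = 0.264). The neutrophil sum was 8.708 to 32.97 CPM in MLE-sham and 18.62 to 58.52 CPM in MLE-BDL, so these transcripts were scarce in all livers. Their part in the rise of the chemokines was not tested. Of 21 lymphocyte markers, 1 (4.76%), the B cell receptor chain CD79B, was called lower (log2 fold change -1.58, SE 0.46, adjusted p = 0.0131). Of 17 sinusoidal endothelial markers, 1 (5.88%), the lectin CLEC4G, was called lower, at 122 to 194 CPM (median 146) in MLE-sham and 31.7 to 101 CPM (median 76.3) in MLE-BDL (log2 fold change -1.02, SE 0.21, adjusted p = 0.000528), although it was under 2-fold without MLE-BDL replicates 3, 5 or 7 or MLE-sham replicate 7.

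Red cell genes gave 2 calls of 12, both lower. HBB, beta globin, was at 423 to 765 CPM (median 488) in MLE-sham and 133 to 477 CPM (median 201) in MLE-BDL (log2 fold change -1.09, SE 0.38, adjusted p = 0.0399), and did not pass without any one of MLE-BDL replicates 1 to 5 or MLE-sham replicates 1, 4 or 7 (adjusted p up to 0.0847) or without the pair that stood apart (adjusted p = 0.0598). ALAS2, the erythroid enzyme of haem synthesis, was at 12.5 to 25.2 CPM (median 15.8) in MLE-sham and 4.23 to 12.3 CPM (median 7.21) in MLE-BDL (log2 fold change -1.14, SE 0.38, adjusted p = 0.0309), and did not pass without MLE-BDL replicates 3, 4 or 5 or MLE-sham replicate 1 (adjusted p up to 0.0692). The erythroid sum was 557 to 1001 CPM in MLE-sham and 262.6 to 622.6 CPM in MLE-BDL.

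Of 23 hepatocyte markers, 17 fell at any fold and none rose, 11 were lower in every BDL liver, and the median log2 fold change was -0.57, yet only FETUB and PCK1 fell over 2-fold. Calls in this list numbered 1 with the identifier number as a block, 1 or 2 without 1 pig and 0 on library totals without scaling. ALB was at 35786 to 81294 CPM (median 56519) in MLE-sham and 23453 to 40433 CPM (median 31336) in MLE-BDL. The groups overlapped slightly, and the log2 fold change was -0.77 (SE 0.17, adjusted p = 0.00113). TTR, the thyroxine carrier transthyretin, was at 1324 to 2219.7 CPM (median 1586) in MLE-sham and 777 to 1201 CPM (median 1019) in MLE-BDL, without overlap (log2 fold change -0.71, SE 0.15, adjusted p = 0.000453). FETUB, a secreted protease inhibitor, was at 655 to 2303 CPM (median 1781) in MLE-sham and 357 to 1051 CPM (median 656) in MLE-BDL (log2 fold change -1.10, SE 0.31, adjusted p = 0.0113). HNF4A, the main transcription factor of hepatocyte identity, differed by -0.04 ± 0.10 (adjusted p = 0.853) and did not pass. Of 20 hepatocyte transcription factors, none was called, 1 rose and 6 fell at any fold, and the median was -0.28.

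Among coagulation and complement factors, 22 of 40 were lower at any fold, none was higher and 18 did not pass. In 12 every BDL liver was lower, the median was -0.46, and 2.5% were called, against 3.78% of all genes. F2, prothrombin, was at 2946 to 3714 CPM (median 3379) in MLE-sham and 1861 to 2233 CPM (median 2099.8) in MLE-BDL. Its fall was under 2-fold but the groups did not overlap (log2 fold change -0.71, SE 0.09, adjusted p = 2.88e-07). HRG, histidine-rich glycoprotein, was the member called, at 2027 to 7239 CPM (median 3873) in MLE-sham and 877 to 1919.8 CPM (median 1245) in MLE-BDL (log2 fold change -1.66, SE 0.25, adjusted p = 5.61e-06). Among 24 apolipoprotein and lipoprotein genes, 10 fell and 1 rose at any fold. APOA1, the core protein of high-density lipoprotein, was at 7105 to 14242 CPM (median 9456) in MLE-sham and 5064 to 6863 CPM (median 5599) in MLE-BDL (log2 fold change -0.77, SE 0.16, adjusted p = 0.000442), and APOC3, an inhibitor of triglyceride clearance, at 1890.4 to 3656 CPM (median 2372) in MLE-sham and 1182 to 1849.7 CPM (median 1322) in MLE-BDL (log2 fold change -0.83, SE 0.16, adjusted p = 0.000172). APOF was called lower (log2 fold change -1.10, SE 0.18, adjusted p = 1.95e-05), and was under 2-fold on library totals without scaling (-0.88).

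Acute-phase serum proteins, which the liver makes under inflammatory cytokines, gave calls in the lower direction only with all pigs. Of 21 measured, 5 were called lower and none higher. At any fold 10 fell and 11 did not pass, 6 did not overlap, and the median was -0.72. Without MLE-BDL replicate 2, 3 were called lower, and without MLE-sham replicate 2, 1 was called higher. ITIH4, an inter-alpha-trypsin inhibitor chain and a major acute-phase protein of pigs (chromosome 13, 34928455 to 34948250), was at 3187 to 6886 CPM (median 4241) in MLE-sham and 1301 to 2213 CPM (median 1646) in MLE-BDL. Every BDL liver was below every sham (log2 fold change -1.38, SE 0.23, adjusted p = 3.55e-05). HP, haptoglobin (chromosome 6, 14980382 to 14985245), was at 2586 to 12079 CPM (median 6616) in MLE-sham and 1464 to 3624 CPM (median 2376) in MLE-BDL (log2 fold change -1.38, SE 0.32, adjusted p = 0.00146). CP, ceruloplasmin, fell by 1.45 (SE 0.43, adjusted p = 0.0153), and ORM1, orosomucoid, named after its value was seen, fell by 1.10 (SE 0.33, adjusted p = 0.0147). ORM1 was under 2-fold without MLE-BDL replicate 2 or MLE-sham replicate 7 (log2 fold change -0.90 at the least), and CP did not pass on the MLE pigs alone with the identifier number (adjusted p = 0.0793) or the replicate number (adjusted p = 0.0766) as a block. SAA2, a serum amyloid A gene, was at 4.9 to 403 CPM (median 12.4) in MLE-sham and 1.49 to 13.3 CPM (median 7.75) in MLE-BDL, and its call rested on single livers. Its log2 fold change was -2.97 (SE 0.98, adjusted p = 0.0317) with all pigs and -1.13 without MLE-sham replicate 2 (403 CPM), and it did not pass without that pig or without MLE-BDL replicates 1, 2, 6 or 8 (adjusted p up to 0.42). It did not pass with the identifier number as a block (adjusted p = 0.0788) or without the pair that stood apart (adjusted p = 0.511) either.

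**Figure D3:**
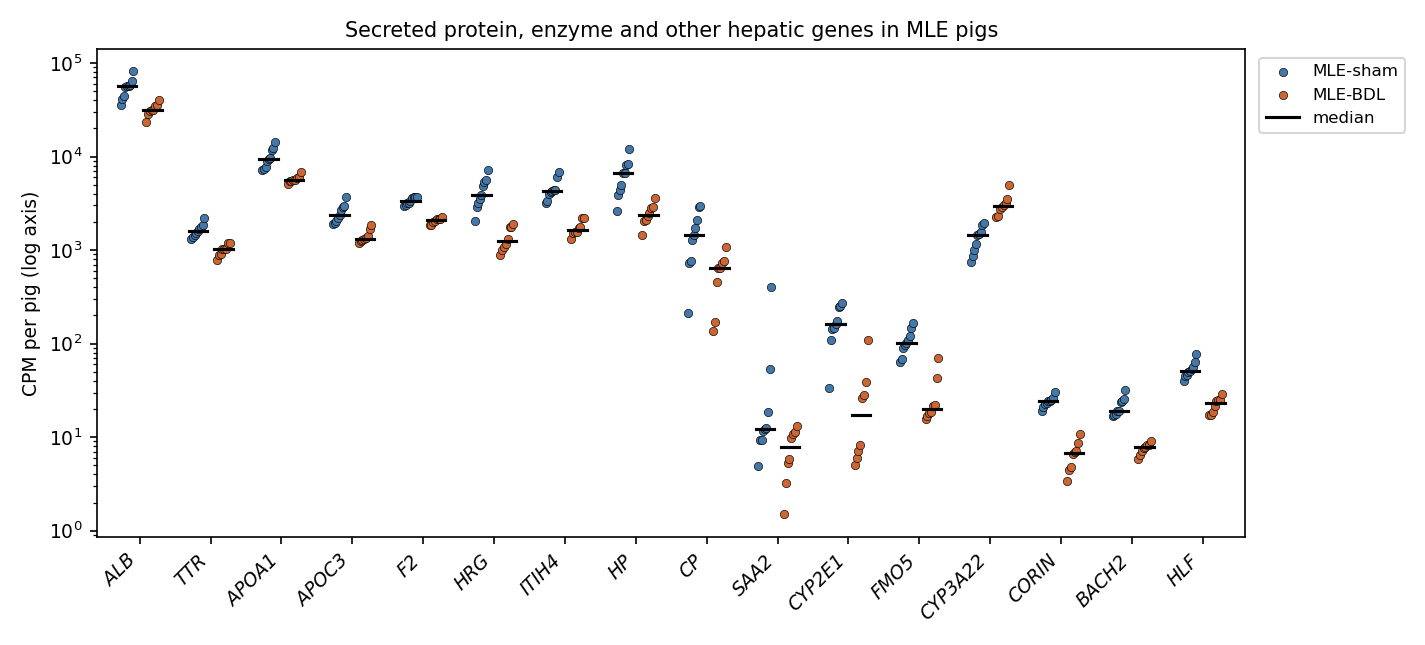
CPM of hepatocyte, serum protein, enzyme and regulator genes in each MLE liver (y axis, log scale), with genes along the x axis, 1 point for each pig, colour for surgery and a bar at the group median. TTR, F2, HRG, ITIH4, CORIN, BACH2 and HLF are lower in all 8 MLE-BDL than in all 9 MLE-sham livers, CYP3A22 is higher, and SAA2 in MLE-sham spans 4.9 to 403 CPM.

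Among 13 enzymes of bile acid synthesis and conjugation, 2 were called higher (15.4%, against 3.78% of all genes), and at any fold 2 rose and 3 fell (38.5%, against 14.4%). CYP7A1, the rate-limiting enzyme, was at 0 to 2.44 CPM (median 0.335) in MLE-sham and 1.31 to 7.08 CPM (median 3.23) in MLE-BDL. Both groups were low, the sham group included a liver without a read, and MLE-sham replicate 4 was inside the BDL range (log2 fold change 2.84, SE 0.83, adjusted p = 0.014). Without that pig the log2 fold change reached 3.73. CYP8B1, the enzyme that makes cholic acid, was at 0 to 0.658 CPM (median 0) in MLE-sham and 0.156 to 2.14 CPM (median 0.771) in MLE-BDL, with at least 5 of the shams at 0 (log2 fold change 2.60, SE 0.72, adjusted p = 0.00876), and its log2 fold change reached 3.49 without MLE-sham replicate 1. CYP27A1, which opens the alternative pathway, had a median of 318 CPM in MLE-sham and 313 CPM in MLE-BDL and differed by -0.03 ± 0.13 (adjusted p = 0.923).

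Of 23 bile acid and organic anion transporters, 3 were called higher. Without the pair that stood apart 2 were called higher and 1 lower, and without MLE-BDL replicate 2 alone 1 was called lower. SLC51A and SLC51B, the chains of the basolateral exporter OST, were at 0.557 to 5.89 CPM (median 1.79) in MLE-sham and 2.65 to 18.7 CPM (median 9.65) in MLE-BDL and at 4.87 to 38 CPM (median 11.9) in MLE-sham and 12.1 to 50.8 CPM (median 38.9) in MLE-BDL respectively. The groups overlapped for both, with MLE-BDL replicate 8 at the lowest BDL value of each (log2 fold change 2.33, SE 0.65, adjusted p = 0.00935 for SLC51A and log2 fold change 1.304, SE 0.36, adjusted p = 0.00793 for SLC51B). ABCB4, the phospholipid exporter of the canaliculus, rose by 1.11 (SE 0.31, adjusted p = 0.00865), with the other sign in 1 identifier number, and was under 2-fold without MLE-BDL replicate 2 (0.95) or without that pair (0.93). The canalicular bile salt pump ABCB11 was at 216 to 516 CPM (median 354) in MLE-sham and 327 to 393 CPM (median 368) in MLE-BDL, a difference of 0.03 ± 0.19 (adjusted p = 0.945). The uptake carrier SLC10A1 and the conjugate exporter ABCC2 differed by -0.24 ± 0.18 (adjusted p = 0.394) and 0.08 ± 0.13 (adjusted p = 0.73). None of these 3 passed.

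The gene of the bile acid receptor FXR, NR1H4, was at 78.7 to 110.1 CPM (median 86.1) in MLE-sham and 63.9 to 86.8 CPM (median 78.5) in MLE-BDL, a difference of -0.20 ± 0.07 (adjusted p = 0.0597). It passed with the identifier number as a block (adjusted p = 0.0409) and without the pair that stood apart (adjusted p = 0.0388), at a log2 fold change of -0.20 and -0.23. On library totals without scaling its log2 fold change was 0.015 (adjusted p = 0.893). The FXR target NR0B2 differed by -0.35 ± 0.17 (adjusted p = 0.178), and passed on the MLE pigs alone (adjusted p = 0.0111). FETUB was the called gene among 10 of the FXR and FGF19 axis, and was no longer called without MLE-BDL replicate 2. FGF19, the hormone that the gut and cholestatic livers are known to make in response to bile acids, had 0 counts in all 17 MLE libraries, which allows up to 3 counts in each.

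Enzymes of drug and steroid oxidation gave opposite calls. Of 24 cytochrome P450 genes, CYP3A22 was called higher and CYP2E1 lower (8.33%, against 3.78% of all genes). At any fold, 1 rose and 2 fell (12.5%, against 14.4%). CYP3A22, a pig member of the family that hydroxylates bile acids and drugs, was at 737 to 1941 CPM (median 1459) in MLE-sham and 2261 to 5001 CPM (median 2956) in MLE-BDL, without overlap (log2 fold change 1.22, SE 0.31, adjusted p = 0.00434). Near-identical CYP3A genes can share reads, so the split between them is uncertain. CYP2E1, an ethanol-oxidizing enzyme, was at 33.1 to 274 CPM (median 163) in MLE-sham and 5.02 to 109.6 CPM (median 17.1) in MLE-BDL (log2 fold change -2.59, SE 0.63, adjusted p = 0.00265). MLE-BDL replicate 2 held the highest BDL value, and without it the log2 fold change was -3.33. Up to 4 P450 genes were called lower without MLE-BDL replicate 2 or MLE-sham replicates 5 or 6, and 2 higher without MLE-sham replicate 7. With DESeq2 5 were called lower, and with the identifier number as a block 3. Of 27 flavin monooxygenase, alcohol and aldehyde genes, 11 fell and none rose at any fold, and 3 were called. FMO5 was at 62.9 to 167 CPM (median 102) in MLE-sham and 15.5 to 69.3 CPM (median 19.9) in MLE-BDL (log2 fold change -1.93, SE 0.35, adjusted p = 9.36e-05), FMO1 fell by 1.31 (SE 0.32, adjusted p = 0.00239), and HSD11B1, which regenerates cortisol, fell by 1.17 (SE 0.24, adjusted p = 0.00046). FMO1 did not pass on the MLE pigs alone with the identifier number (adjusted p = 0.0554) or the replicate number (adjusted p = 0.114) as a block. Of 27 conjugation enzymes, SULT2A1, which sulfates bile acids and steroids, was called lower (log2 fold change -1.26, SE 0.37, adjusted p = 0.0136), GNMT, a methyltransferase of glycine, lower (log2 fold change -1.04, SE 0.28, adjusted p = 0.00731) and SULT1A3 higher (log2 fold change 1.00, SE 0.26, adjusted p = 0.00556). GNMT was under 2-fold with the identifier number as a block (-0.97) and without any one of MLE-BDL replicates 4 or 5 or MLE-sham replicates 2, 4 or 9 (log2 fold change down to -0.95), and SULT1A3 with DESeq2 (0.99) and without any one of MLE-BDL replicates 1 or 2 or MLE-sham replicates 3 to 7. SRXN1, sulfiredoxin, was the call among 24 NRF2 and glutathione genes (2 without MLE-sham replicate 1), at 6.12 to 15.2 CPM (median 8.49) in MLE-sham and 27.8 to 38.8 CPM (median 32.8) in MLE-BDL, without overlap (log2 fold change 1.77, SE 0.29, adjusted p = 2.1e-05). That call was 4.17% of its list, against 3.78% of all genes.

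RNA of glucose-handling enzymes gave calls in both directions. Of 23 gluconeogenesis, glycogen and glucose genes, 2 were called higher and 2 lower, and 3 rose and 9 fell at any fold. G6PC, glucose-6-phosphatase, which releases glucose from the liver, was at 93.5 to 429.9 CPM (median 232) in MLE-sham and 45 to 133 CPM (median 91.9) in MLE-BDL (log2 fold change -1.43, SE 0.32, adjusted p = 0.000987). PCK1, the entry enzyme of gluconeogenesis, was at 114 to 1326 CPM (median 615) in MLE-sham and 131 to 512 CPM (median 266) in MLE-BDL (log2 fold change -1.07, SE 0.38, adjusted p = 0.0445). It did not pass without any one of 11 of the 17 pigs, namely MLE-BDL replicates 1, 3, 4, 5, 6 or 8 or MLE-sham replicates 2, 3, 4, 5 or 9 (adjusted p up to 0.109), nor with the identifier number as a block (adjusted p = 0.0553) or without the pair that stood apart (adjusted p = 0.0757). PFKFB3, which raises the activator of phosphofructokinase, was at 10 to 32.2 CPM (median 16.5) in MLE-sham and 43.5 to 82.3 CPM (median 53.8) in MLE-BDL, without overlap (log2 fold change 1.61, SE 0.36, adjusted p = 0.00115). The list had 1 call higher in place of 2 without any one of MLE-BDL replicates 1 or 6 or MLE-sham replicates 1, 2, 4, 5, 6, 8 or 9. Its lower calls were 1 in place of 2 without any one of the 11 pigs given for PCK1 and with the identifier number as a block.

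Genes of glycolysis and of the response to low oxygen included 5 called higher of 28 and none lower, with 8 up and 1 down at any fold and a median of 0.31. Without MLE-BDL replicate 3, 3 were called. HK2, a hexokinase that hepatocytes hardly make, was at 0.0558 to 0.705 CPM (median 0.187) in MLE-sham and 0.732 to 4.5 CPM (median 1.45) in MLE-BDL. It was under 1 CPM in every sham (log2 fold change 3.19, SE 0.56, adjusted p = 4.78e-05). SLC16A3, the lactate exporter, was at 1.08 to 2.31 CPM (median 1.51) in MLE-sham and 3.27 to 17.3 CPM (median 5.66) in MLE-BDL and EGLN3, an oxygen-sensing prolyl hydroxylase, at 1.61 to 4.96 CPM (median 3.25) in MLE-sham and 5.83 to 33.4 CPM (median 10.9) in MLE-BDL. Neither overlapped (log2 fold change 2.20, SE 0.41, adjusted p = 0.000112 and log2 fold change 2.10, SE 0.37, adjusted p = 5.85e-05). NDRG1, a hypoxia-induced gene named after its value was seen, rose by 1.07 (SE 0.20, adjusted p = 0.000125), under 2-fold without MLE-BDL replicates 3 or 7 or MLE-sham replicate 4, and EPO, erythropoietin, by 2.40 (SE 0.76, adjusted p = 0.0244), the latter from at most 0.326 CPM in the shams and with adjusted p = 0.0545 without MLE-BDL replicate 3. VEGFA, a target of the same oxygen sensor, differed by -0.04 ± 0.10 (adjusted p = 0.833).

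NPC1L1, a sterol uptake transporter, was at 2.03 to 11 CPM (median 5.87) in MLE-sham and 15.2 to 35.7 CPM (median 22.7) in MLE-BDL and did not overlap (log2 fold change 1.98, SE 0.35, adjusted p = 4.99e-05), and it was the call among 24 cholesterol genes (4.17%, against 3.78% of all genes). LPL, lipoprotein lipase, was at 0.0558 to 0.538 CPM (median 0.25) in MLE-sham and 0.523 to 9.09 CPM (median 2.52) in MLE-BDL (log2 fold change 3.78, SE 0.66, adjusted p = 5.25e-05). THRSP, a regulator of fat synthesis, was at 135 to 454 CPM (median 300.2) in MLE-sham and 58.6 to 174 CPM (median 84.2) in MLE-BDL (log2 fold change -1.66, SE 0.33, adjusted p = 0.000294), and DGAT2, the enzyme of the last step of triglyceride synthesis, fell by 1.12 (SE 0.23, adjusted p = 0.000483). ELOVL7, a fatty acid elongase, rose by 1.05 (SE 0.21, adjusted p = 0.00022), under 2-fold without MLE-BDL replicate 2 or MLE-sham replicate 8, without the pair that stood apart (0.90) and with the identifier number as a block (0.97). Those 3 were the calls among 31 lipogenesis genes (9.68%, against 3.78% of all genes). Of 40 fatty acid oxidation genes none was called and 6 fell at any fold (15%, against 14.4% of all genes). Of 58 amino acid breakdown genes, 24 fell and 1 rose at any fold (43.1%, against 14.4% of all genes), while 3.45% were called, against 3.78%. The riser was ACMSD, which diverts tryptophan away from NAD synthesis, at 1.18 to 2.99 CPM (median 1.8) in MLE-sham and 5.46 to 14.4 CPM (median 6.66) in MLE-BDL and without overlap (log2 fold change 2.20, SE 0.31, adjusted p = 1.14e-06).

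Stress and growth programs were mixed. Of 26 immediate early and heat shock genes, 6 were called higher, 9 rose and none fell at any fold. JUN was at 19 to 36.4 CPM (median 25.4) in MLE-sham and 53.6 to 85.7 CPM (median 61.4) in MLE-BDL and FOSB at 0.522 to 1.37 CPM (median 0.737) in MLE-sham and 1.57 to 8.66 CPM (median 4.03) in MLE-BDL, both without overlap (log2 fold change 1.38, SE 0.25, adjusted p = 7.3e-05 and log2 fold change 2.56, SE 0.50, adjusted p = 0.000221). ATF3, a stress transcription factor, rose by 1.92 (SE 0.37, adjusted p = 0.000192) and GDF15, a stress hormone, by 1.86 (SE 0.49, adjusted p = 0.00534), the calls among 26 ATF4 and integrated stress genes. Of 41 cell cycle genes none was called, and 6 rose and none fell at any fold (14.6%, against 14.4% of all genes). TOP2A differed by 0.37 ± 0.16 (adjusted p = 0.116). Of 26 endoplasmic reticulum folding genes none was called and 3 fell at any fold (11.5%).

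Interferon-stimulated genes had a median of 0.94 over 31 genes, and their calls depended on the model. In the edgeR fit over all 60 pigs none was called and 1 fell at any fold, and DESeq2 called 1 higher. The edgeR fit over the MLE pigs alone called 5 higher, ISG15 (adjusted p = 0.0127) and MX1 (adjusted p = 0.0484) among them, and that over all pigs with the identifier number as a block called 6, again with ISG15 (adjusted p = 0.0156) and MX1 (adjusted p = 0.0348). Over all pigs and without the block, ISG15, MX1 and IFIT1 differed by 2.24 ± 0.96 (adjusted p = 0.11), 1.63 ± 0.87 (adjusted p = 0.213) and 1.38 ± 0.84 (adjusted p = 0.285). Their spread between livers was wide: MX1 was at 13.5 to 112 CPM (median 30.2) in MLE-sham and 35.8 to 340.1 CPM (median 56.5) in MLE-BDL, and MLE-sham replicate 9 was the highest sham for all 3.

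Of the iron, zinc and copper genes 8.33% were called, of the IGF axis genes 4.76% and of the clock genes 5%, all lower, against 1.22% of all genes called lower. SLC40A1, the iron exporter ferroportin, was at 702 to 1232 CPM (median 1041) in MLE-sham and 406 to 690 CPM (median 452) in MLE-BDL, without overlap (log2 fold change -1.01, SE 0.14, adjusted p = 1.79e-06). It was at the 2-fold limit and fell under it with the identifier number as a block (-0.97) and without any one of MLE-BDL replicates 1, 3, 5, 6 or 7 or MLE-sham replicates 2, 4, 8 or 9. CP was the other call among 24 iron, zinc and copper genes. PAPPA2, a protease that frees IGF from its binding proteins, fell by 1.23 (SE 0.24, adjusted p = 0.000232), the call among 21 IGF axis genes, while GHR, the growth hormone receptor, fell by 0.70 (SE 0.16, adjusted p = 0.00125), under 2-fold. HLF, a clock output transcription factor, was at 40.3 to 76.7 CPM (median 50.7) in MLE-sham and 17.2 to 29.1 CPM (median 22.9) in MLE-BDL. It was lower in every BDL liver (log2 fold change -1.27, SE 0.16, adjusted p = 2e-07), and 7 of 20 clock genes fell at any fold with none rising. One more clock gene was called lower without any one of MLE-BDL replicates 2 or 6 or MLE-sham replicates 2, 8 or 9.

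**Figure D4:**
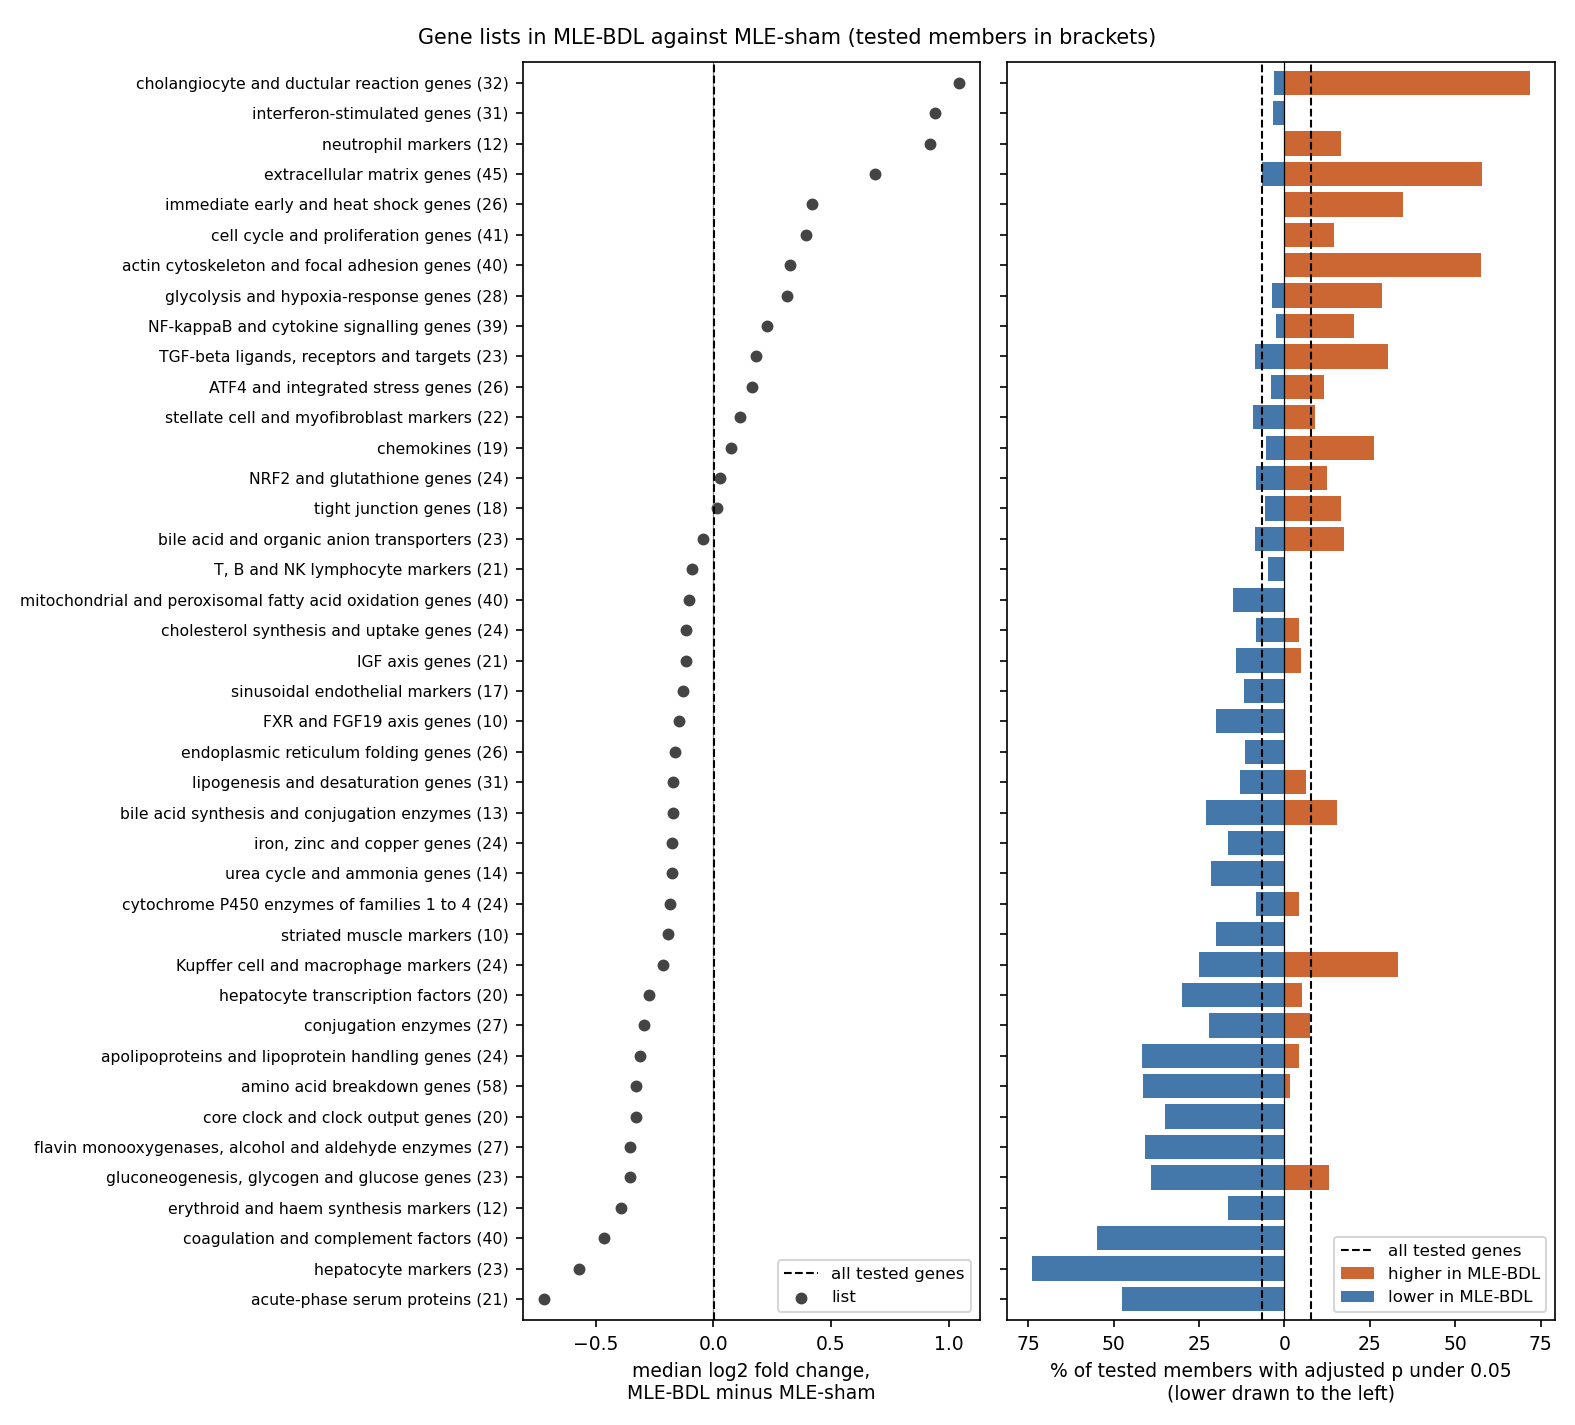
Median log2 fold change, MLE-BDL minus MLE-sham, of each gene list with 10 or more tested genes (left, x axis), and the percent of its members with adjusted p under 0.05 that were higher or lower (right, x axis), with dashed lines at the values of all tested genes. The bile duct list has the highest median, 1.04, and acute-phase proteins the lowest, -0.72. On library totals without scaling, 14 of the 41 medians, all between -0.19 and -0.05 here, had the other sign.

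Outside the lists, some genes separated the groups with the smallest p of all. CORIN, a membrane protease that activates natriuretic peptide (chromosome 8, 37530812 to 37811226), was at 19 to 30.8 CPM (median 24.5) in MLE-sham and 3.38 to 10.7 CPM (median 6.73) in MLE-BDL. BACH2, a transcriptional repressor (chromosome 1, 57881203 to 58281740), was at 16.7 to 32.1 CPM (median 19.2) in MLE-sham and 5.91 to 9.15 CPM (median 7.78) in MLE-BDL. Both were lower in every BDL liver, with log2 fold changes of -1.87 (SE 0.20) and -1.52 (SE 0.17) and, with ANXA2, an adjusted p of 3.15e-09. ANK3, which anchors membrane proteins to the cytoskeleton, was at 10.8 to 21.1 CPM (median 15) in MLE-sham and 37.9 to 60.1 CPM (median 49.7) in MLE-BDL, all BDL livers above all shams (log2 fold change 1.70, SE 0.22, adjusted p = 2e-07). ANKRD33 was at 0.638 to 4.78 CPM (median 3.41) in MLE-sham and 15.5 to 57.4 CPM (median 24.7) in MLE-BDL (log2 fold change 3.25, SE 0.46, adjusted p = 1.99e-06), and S100A2 at 2.18 to 11.9 CPM (median 6.12) in MLE-sham and 20.4 to 64.4 CPM (median 31) in MLE-BDL (log2 fold change 2.67, SE 0.46, adjusted p = 4.5e-05), both without overlap. PTGIS, prostacyclin synthase, and RND1, a small GTPase, rose by 2.15 (SE 0.45, adjusted p = 0.000492) and 2.13 (SE 0.37, adjusted p = 5.25e-05). SLC13A5, the citrate carrier of hepatocytes, was at 5.58 to 22.8 CPM (median 10.4) in MLE-sham and 2.3 to 4.66 CPM (median 3) in MLE-BDL, lower in every BDL liver (log2 fold change -1.80, SE 0.36, adjusted p = 0.000266).

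Of the 107 genes named here that passed adjusted p under 0.05, 101 had 1 sign in all 4 identifier numbers. The exceptions were TGFB1, PTGS2, MARCO, PCK1, ABCB4 and CNTFR, each with the other sign in 1 number. Of the 96 named genes that were also over 2-fold, 76 kept their call without any single pig, 88 without the pair that stood apart and 89 with the identifier number as a block. The block ended the calls of PCK1, SAA2, GNMT, CCL19 (-0.97), ELOVL7, SLC40A1 and CNTFR (0.97) and added COL1A2, ISG15 and MX1. Leaving out the pair ended those of HBB, PCK1, SAA2, CCL19, COL3A1, ABCB4, ELOVL7 and CNTFR (0.78). CNTFR was also under 2-fold without any one of MLE-BDL replicates 2, 4 or 7 or MLE-sham replicates 1, 3, 6 or 8. Library totals without scaling ended 13 of the 96 calls, all of them falls. They were those of CLEC4G, HBB, ALAS2, FETUB, PCK1, HSD11B1, GNMT, APOF, DGAT2, WDR86, CCL19, ORM1 and SLC40A1. With the identifier number as a block, 11 of the 86 counts of calls by list and direction moved by over 1.5 times, 9 of them by 1 gene and the others those of the interferon-stimulated and P450 genes.

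The response to BDL on MLE was then tested against the response on the other diets. The difference of the BDL effects between MLE and SLE passed an adjusted p under 0.05 in 43 genes (0.265%), 11 with a higher and 32 with a lower log2 fold change on MLE, and it was over 2-fold too in 32 genes (0.197%). Between MLE and ENT it passed in 10 genes (0.0617%), 3 higher and 7 lower, with 4 (0.0247%) over 2-fold. The MLE pigs carried identifier numbers only partly shared with the other diets, and with that number as a block the counts were 33 and 76. Both counts depended on single livers. The MLE to SLE count fell to 22 without MLE-BDL replicate 5 and rose to 69 without MLE-sham replicate 6, and the MLE to ENT count was 0 without any one of MLE-BDL replicates 2 to 7 or MLE-sham replicates 1, 3 or 5 (1304 to 1414 genes at unadjusted p under 0.05). Without the pair that stood apart, they were 25 and 4. The libraries of ENT-sham replicate 2 and ENT-BDL replicate 1, which carry opposite surgery labels, nearly matched: their counts differed by a chi-square of 1.905 per degree of freedom, against 38.03 or more for the other pairs of an ENT-sham and an ENT-BDL library. Without those 2 the MLE to ENT count was 38, with 7 higher and 31 lower.

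Against SLE, the genes with a lower response on MLE included serum proteins. FAM20A, a pseudokinase of the secretory pathway (chromosome 12, 11606469 to 11663086), was at 33.7 to 50.8 CPM (median 39.4) in MLE-sham and 13.3 to 25.1 CPM (median 16.3) in MLE-BDL. Its log2 fold change was -1.23 ± 0.18 on MLE, 0.41 ± 0.16 on SLE and -0.84 ± 0.15 on ENT (difference from SLE -1.65, SE 0.24, adjusted p = 5.1e-05). That of HP was -1.38 ± 0.32 on MLE, 0.94 ± 0.28 on SLE and -0.99 ± 0.28 on ENT (difference from SLE -2.32, SE 0.42, adjusted p = 0.00388). For ITIH4 the values were -1.38 ± 0.23, 0.40 ± 0.21 and -1.13 ± 0.21 in the same order (difference from SLE -1.78, SE 0.31, adjusted p = 0.00311). WDR86, a gene of little known function, had -1.22 ± 0.22, 0.31 ± 0.20 and -0.89 ± 0.19 (difference from SLE -1.53, SE 0.30, adjusted p = 0.00689). With the identifier number as a block, these differences were -1.51 for FAM20A, -2.08 for HP, -1.63 for ITIH4 and -1.46 for WDR86. All 4 passed with that block (adjusted p of 0.0015 to 0.015) and in all 17 fits that left out 1 MLE pig. G6PC (-1.72, SE 0.42, adjusted p = 0.0462) and CLDN1 (-0.64, SE 0.15, adjusted p = 0.0438) passed in 5 and 7 of those fits. Neither passed with the identifier number as a block (adjusted p = 0.0978 for G6PC and 0.134 for CLDN1), and G6PC did not without the pair that stood apart (adjusted p = 0.0523).

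LGALS3, TREM2 and LPL had a higher response on MLE than on SLE. The log2 fold change of LGALS3 was 3.46 ± 0.52 on MLE, 0.11 ± 0.40 on SLE and 3.46 ± 0.45 on ENT, and its difference from SLE (3.35, SE 0.64, adjusted p = 0.00689) passed in all 17 fits. In the same order, TREM2 had 4.10 ± 0.65, 0.51 ± 0.47 and 3.03 ± 0.53 (difference from SLE 3.59, SE 0.80, adjusted p = 0.0242), and LPL had 3.78 ± 0.66, 0.06 ± 0.47 and 3.03 ± 0.58 (difference from SLE 3.73, SE 0.81, adjusted p = 0.021). TREM2 and LPL passed in 16 of the 17 fits, and with the identifier number as a block their adjusted p was 0.053 and 0.0654. Without the pair that stood apart it was 0.0555 for both. Neither gene reached 10 CPM in any MLE liver, so these differences rest on few reads. Without the ENT pair, the values on ENT were 4.59 for LGALS3, 4.79 for TREM2 and 3.56 for LPL. CNTFR, the receptor of ciliary neurotrophic factor, passed in all 17 fits (difference 1.34, SE 0.26, adjusted p = 0.00685) and TUBB2B in 6 (difference 1.26, SE 0.30, adjusted p = 0.0438), but TUBB2B did not without the pair that stood apart (adjusted p = 0.0555).

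The difference from ENT passed in 2 of 24 cholesterol synthesis and uptake genes, HMGCS1 and SQLE, each with a lower response on MLE. HMGCS1, an early enzyme of cholesterol synthesis, was at 417 to 1277 CPM (median 733) in MLE-sham and 651 to 1131 CPM (median 868) in MLE-BDL, and its log2 fold change was 0.16 ± 0.23 on MLE and 1.63 ± 0.20 on ENT (difference -1.48, SE 0.30, adjusted p = 0.0423). SQLE, a later enzyme of the same pathway, had -0.13 ± 0.14 on MLE and 0.73 ± 0.12 on ENT (difference -0.87, SE 0.19, adjusted p = 0.0431), and ABCG5, a chain of the canalicular sterol exporter and not in that list, had -0.05 ± 0.14 and 0.88 ± 0.13 (difference -0.92, SE 0.19, adjusted p = 0.0423). None of the 3 passed in MLE-BDL against MLE-sham. DUSP22, a phosphatase, had a lower response as well (-0.75, SE 0.15, adjusted p = 0.0423), while ABCC3, a basolateral exporter of bile acid conjugates, and LYPD6B had a higher one (0.81, SE 0.17, adjusted p = 0.0423 and 4.23, SE 0.91, adjusted p = 0.0431). On MLE none of these passed: DUSP22 had -0.14 (adjusted p = 0.439), ABCC3 0.31 (adjusted p = 0.0979) and LYPD6B 1.11 (adjusted p = 0.267). Their log2 fold changes on ENT were 0.61, -0.51 and -3.11 in the same order. LYPD6B was at most 0.626 CPM in MLE-sham and 1.78 CPM in MLE-BDL, so its difference rests on few reads in these pigs. All 6 differences from ENT passed in only 4 to 6 of the 17 fits that left out 1 MLE pig. Without the MLE pair that stood apart, ABCG5 and DUSP22 passed (adjusted p = 0.0364 for both), while HMGCS1 (adjusted p = 0.0502), SQLE (adjusted p = 0.0556), ABCC3 (adjusted p = 0.0556) and LYPD6B (adjusted p = 0.0601) did not. Without the ENT pair all 6 passed, with an adjusted p of 0.00159 to 0.0165.

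**Figure D5:**
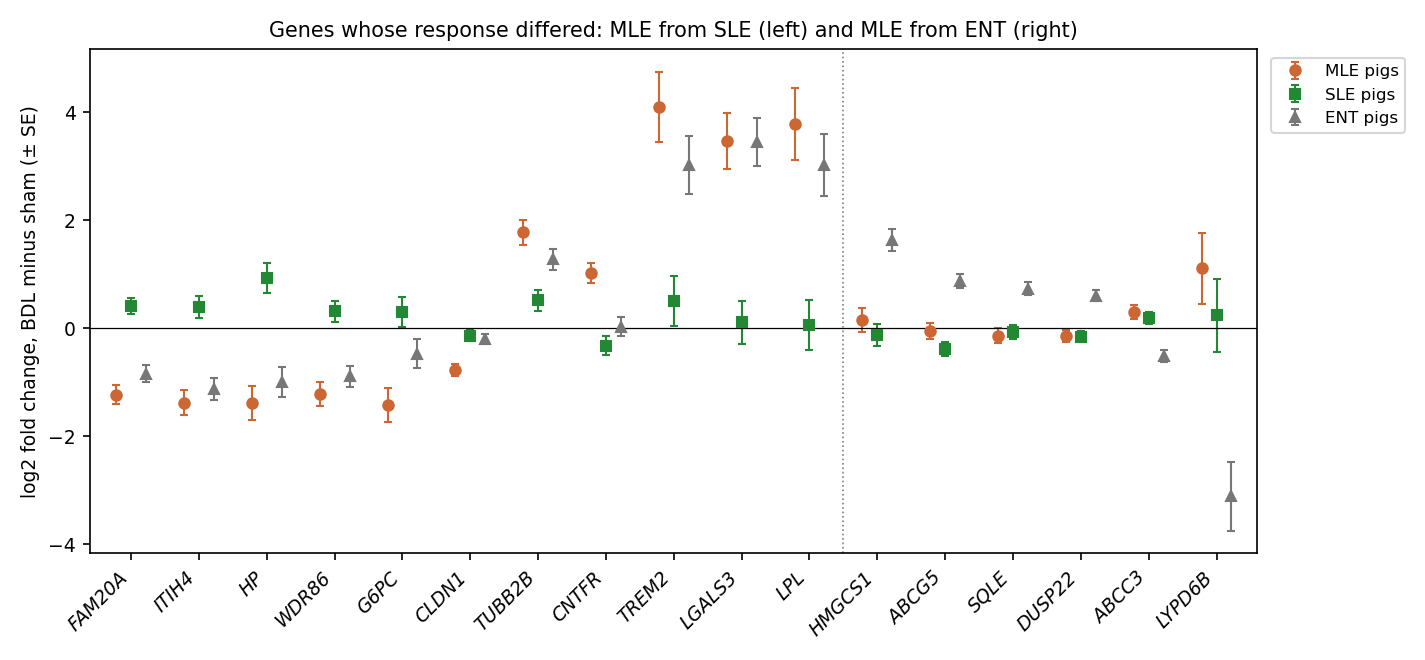
Log2 fold change of BDL against sham (y axis) on MLE, SLE and ENT, with bars of ± 1 SE, for genes whose response differed between MLE and SLE (left) or between MLE and ENT (right). HP and ITIH4 fell on MLE, with a log2 fold change of -1.38 for each, and on SLE their values were 0.94 ± 0.28 and 0.40 ± 0.21.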

How the data were processed

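Liver RNA of 60 pigs in 6 groups was sequenced after poly-A selection with a NEBNext Ultra kit, and each group was taken from the labels of diet and surgery. According to the submitters' processing notes, the authors used HISAT2 2.0.5, StringTie 1.3.3 and featureCounts 1.5.0-p3 with Sscrofa11.1. The deposited table holds raw counts per gene, not normalized. Since no strand setting is stated, reads of overlapping and antisense genes cannot be told apart. Of 30359 features, 24 without a gene name (0.0085% to 0.0208% of the counts of an MLE library) were left out.

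Counts of all 60 pigs were fitted with edgeR 4.0.16 in R 4.3.3 (filterByExpr, TMM, robust quasi-likelihood), with 1 spread shared by the 6 groups, and 16210 of 30335 named genes were tested. Contrasts were MLE-BDL minus MLE-sham and its differences from the SLE and ENT contrasts, two-sided, Benjamini-Hochberg adjusted over all tested genes. The standard error is the log2 fold change divided by the square root of F. CPM use TMM-scaled library sizes, and principal components use log2 CPM with a prior count of 2. Alternatives used DESeq2 1.42.0, other scaling and filters, glmTreat, replicate or identifier blocks, and leaving out each pig. The fits were tested on simulated data. Libraries were treated as separate pigs, and all within-group pairs differed beyond counting noise, with a chi-square per degree of freedom of 16.14 or more over 64 MLE, 23.86 over 100 SLE and 20.11 over 111 ENT pairs. One ENT-sham and ENT-BDL pair nearly matched (1.905). Depth was 15555556 to 18370633 counted reads per MLE library, and a limit from a count of 0 covers counting error only.

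Named genes were taken from the 15 largest rises and 12 largest falls (called genes that have symbols and average 2 or more in log2 CPM over the MLE pigs), the 6 smallest p-values, the first 3 members of each list and up to 4 largest called members, SOX9, MMP7, TGFB1, CYP7A1 and FGF19, and the 5 smallest p-values of each difference, and not every gene so chosen is named. A few of them are not reported here. The genes and lists were chosen with earlier results of these data known. No sequence is printed.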

Additional observations from a re-analysis of the deposited data

Results flagged for a closer look

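For 270 sets of values, those of 134 named genes and of the first-component score in each MLE group, the gap between the highest or lowest pig and its nearest neighbour was divided by the range of the group and set against Dixon's critical value for its number of pigs. The gap was past that value in 33 sets, 31 at the highest and 2 at the lowest pig, where chance gives about 1 set in 20 for normally distributed values. The rate for CPM, which can be skewed towards high values, was not tested. MLE-sham replicate 2 held 9 of them and MLE-sham replicate 9 held 6.

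MLE-sham replicate 2 was the highest sham for SAA2 (403.2 CPM against 53.29 in the next pig, a gap of 0.879 of the range), HK2 (0.765), LYZ (0.666), CCL19 (0.66), LGALS3 (0.619), SULT1A3 (0.566), CCL2 (0.543), MARCO (0.519) and IKBKE (0.503). MLE-sham replicate 9 was the highest sham for the interferon-stimulated genes MX1 (0.676), IFIT1 (0.66) and ISG15 (0.527) and the collagens COL1A1 (0.599), COL1A2 (0.525) and COL16A1 (0.52). MLE-sham replicate 7 was the highest for SLC51A (0.589), SLC51B (0.537) and ACTG1 (0.496), and MLE-sham replicate 5 for S100A6 (0.519) and S100A2 (0.51). MLE-sham replicate 4 was the highest for CYP7A1 (0.71) and MLE-sham replicate 1 for CYP8B1 (0.576) and LPL (0.554). MLE-sham replicate 6 was the lowest for FMO1, at 87.23 CPM against 406.1 in the next pig (0.648).

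Among the ligated pigs, MLE-BDL replicate 2 was the highest for CYP2E1 (109.6 CPM against 38.69 in the next pig, 0.678), GNMT (0.561), ELOVL7 (0.533) and CYP3A22 (0.531) and the lowest for TUBB2B (0.571). The highest pig was MLE-BDL replicate 5 for LYPD6B (0.614), MLE-BDL replicate 6 for ORM1 (0.587), MLE-BDL replicate 7 for LPL (0.559) and MLE-BDL replicate 1 for ANKRD33 (0.552).

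The response to BDL differed between diets, by the interaction term of edgeR's quasi-likelihood test, in 43 genes for MLE against SLE and in 10 for MLE against ENT. As MLE minus SLE on the log2 scale, the named differences were 3.73 for LPL, 3.59 for TREM2, 3.35 for LGALS3, 1.34 for CNTFR, 1.26 for TUBB2B, -2.32 for HP, -1.78 for ITIH4, -1.72 for G6PC, -1.65 for FAM20A, -1.53 for WDR86 and -0.64 for CLDN1. As MLE minus ENT they were 4.23 for LYPD6B, 0.81 for ABCC3, -1.48 for HMGCS1, -0.92 for ABCG5, -0.87 for SQLE and -0.75 for DUSP22.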

How the results depend on the processing

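The 612 calls in MLE-BDL against MLE-sham numbered 666 under DESeq2 over all 60 pigs, and over the MLE pigs only 575 (DESeq2) or 548 (edgeR). They numbered 605 with RLE scaling and 551 to 654 when 1 pig was left out (364 to 451 higher, 173 to 222 lower). Library totals without scaling, added after seeing the data, gave 874 (737 higher and 137 lower) and moved the median of all genes from 0.004 to 0.21 on the log2 scale. At least 10 counts in every MLE pig left 308 (202 higher, 106 lower), any fold gave 2339 (1273 and 1066), and glmTreat, which tests against the 2-fold limit itself, 48 (39 and 9). The 111 calls among list members became 316 at any fold, 12 with glmTreat and 97 to 114 without 1 pig. The first-component difference of 58.52 was 104.1 with genes at unit variance and 33.2 on 500 genes, and 57.11 to 60.57 without 1 pig. The 43 differences between MLE and SLE (11 higher, 32 lower) became 118 with DESeq2 (29 and 89), 44 on those diets alone (19 higher), 30 without a filter (7 higher), 25 without the pair chosen after seeing the data (17 lower), and 22 to 69 without 1 pig (4 to 16 higher, 15 to 56 lower). The count moved by over 1.5 times without MLE-BDL replicate 5 (22), 7 (23), 4 (24) or 1 (25), or MLE-sham replicate 4 (24), 9 (27) or 6 (69). The 10 differences between MLE and ENT (3 higher, 7 lower) became 47 with DESeq2 (16 and 31), 37 on those diets alone (9 and 28), 76 with the identifier number as a block (24 and 52), 38 without a pair of like ENT libraries (7 and 31), 4 without the MLE pair (1 and 3), 4 over 2-fold, and 0 to 23 without 1 pig (0 to 5 higher, 0 to 18 lower). That count was 1 without MLE-BDL replicate 1 or MLE-sham replicate 9, 2 without MLE-sham replicate 8, 17 without MLE-BDL replicate 8 and 23 without MLE-sham replicate 2. The cause of these moves was not tested. Replicate numbers were not shown to pair the pigs: deviations of the 8 same-numbered pairs correlated at -0.0173 to 0.2384 (median 0.1808), and 4 of 8 MLE-BDL pigs correlated best with their own number. With the replicate block, 620 genes were called (431 higher, 189 lower) on all pigs and 568 on the MLE pigs alone, with 108 list members, 30 differences from SLE (9 higher, 21 lower) and 15 from ENT (5 higher, 10 lower). Of 107 named genes with adjusted p under 0.05 at any fold, 101 stayed under it without any single pig and 105 with the identifier number as a block (of the 96 also over 2-fold, 76 and 89 kept both), and none reversed past the test, while 17 sign changes fell on 9 genes past the test under neither setting. Depth limits genes under about 1 CPM, such as TREM2, CYP8B1 and EPO, whose fold changes rest on few reads.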
